A study of Homo sapiens with 6 samples.

Results

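Human mitochondria keep a small circular chromosome of their own, and the 37 genes on it were followed here in RNA enriched for newly made transcripts. That RNA came from melanoma cells with and without extra PRL3, a protein tyrosine phosphatase. The genes were taken by position, as every gene that the GRCh38 annotation places on the mitochondrial chromosome (symbols starting with MT-), and they are 37 of the 58243 gene identifiers counted. They comprise 13 mRNA genes, 2 rRNA genes and 22 tRNA genes.

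The libraries came from A375, an established human melanoma cell line, stably transfected with an empty vector (EV, libraries B1, B2 and B3) or with a plasmid for HA-tagged human PRL3 (PRL3, libraries B9, B10 and B11). Both lines were kept in Hygromycin B at 100 µg/ml and were given the uridine analogue 4-thiouridine (4sU) at 500 µM for 20 min. RNA that had taken up 4sU was biotinylated, pulled down on streptavidin, depleted of rRNA and made into strand-specific libraries (4sU-seq). The authors later worked on intronic reads alone, in part because of possible carry-over of mRNA at a low level. The counts used here are per gene, so carried-over RNA cannot be told from newly made RNA in them. The sources used here do not say whether each line was a clone or a pool, nor that the 3 libraries of a group were separate cultures, so p-values measure the spread between libraries, which may be technical.

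The mitochondrial chromosome is read almost end to end from promoters on each strand. The long transcripts carry mRNAs and rRNAs with tRNAs between them, and cutting out the tRNAs releases the neighbours. The chromosome encodes core subunits of respiratory complexes I, III and IV and of the ATP synthase (complex V), together with the rRNAs and tRNAs needed to translate them inside the organelle, and all other proteins of mitochondria are encoded in the nucleus. Genes called heavy-strand here lie on the plus strand of the reference and are transcribed from the heavy-strand promoters. There were 28 of them, with both rRNAs, 12 mRNAs and 14 tRNAs. The 9 light-strand genes lie on the minus strand and comprise MT-ND6 and 8 tRNAs.

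These genes are closely packed, so that a read can touch several of them. The coding sequences of MT-ATP8 and MT-ATP6, both subunits of ATP synthase, share 46 bases in different reading frames (GRCh38 MT:8527-8572, plus strand), shown here from the start codon of MT-ATP6 to the stop codon of MT-ATP8. Those of MT-ND4L and MT-ND4, both subunits of complex I, share 7 bases, shown in capitals within 10 flanking bases on either side (MT:10750-10776, plus strand).
MT-ATP8/MT-ATP6: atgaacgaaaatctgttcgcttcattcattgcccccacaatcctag
MT-ND4L/MT-ND4: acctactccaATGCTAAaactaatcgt

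Beyond the end of MT-ND4, the tRNA genes for histidine, serine and leucine follow with no base between them (MT-TH, MT:12138-12206; MT-TS2, MT:12207-12265; MT-TL2, MT:12266-12336; all plus strand), and the next base is the first of MT-ND5. They are shown as genes that received no read. The tRNA genes with the most reads on each strand, MT-TP for proline (MT:15956-16023, minus strand) and MT-TT for threonine (MT:15888-15953, plus strand), are shown beside them.
MT-TH: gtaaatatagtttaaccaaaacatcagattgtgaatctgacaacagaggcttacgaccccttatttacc
MT-TS2: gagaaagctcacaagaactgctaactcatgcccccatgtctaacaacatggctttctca
MT-TL2: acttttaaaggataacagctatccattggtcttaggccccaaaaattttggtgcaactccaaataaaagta
MT-TP: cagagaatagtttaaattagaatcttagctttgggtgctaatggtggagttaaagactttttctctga
MT-TT: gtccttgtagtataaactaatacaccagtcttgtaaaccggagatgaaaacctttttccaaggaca

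The strands differ in base composition, and the assay labels uridines. Whether U content affected the counts of the 2 strands was not tested. The first 30 bases of MT-CO1 (MT:5904-5933, plus strand) and MT-CO3 (MT:9207-9236, plus strand), from the heavy-strand transcript, and of MT-ND6 (MT:14644-14673, minus strand), from the light-strand transcript, are given with the start codon in capitals.
MT-CO1: ATGttcgccgaccgttgactattctctaca
MT-CO3: ATGacccaccaatcacatgcctatcatata
MT-ND6: ATGatgtatgctttgtttctgttgagtgtg
Over its whole gene, MT-ND6 had 37.7% U and 35.6% G in its RNA. The 12 heavy-strand mRNA genes had between 21.7% and 30.3% U and between 6.28% and 16.2% G.

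Reads counted on genes ranged from 36532207 to 57952035 per library. The transfected gene checks the labels, with PTP4A3 (PRL3) at 132 to 307 counts in the EV libraries and 20584 to 38659 in the PRL3 libraries. Of the melanocytic markers, SOX10 had 9882 to 23575 counts, S100B 982 to 2630 and MITF 1004 to 2412, whereas the pigment genes MLANA, TYR, DCT and TYRP1 never exceeded 20 counts and PMEL had 26 to 61. Of the markers of dedifferentiated melanoma, AXL had 11858 to 19170 counts, EGFR 720 to 1394 and NGFR 72 to 389. Several of these markers were lower in PRL3 in the test described below, SOX10 (log2 fold change -0.85, edgeR adjusted p = 0.0021), S100B (-1.38, 3.1e-05), NGFR (-1.69, 0.00077) and AXL (-0.40, 0.035), while MITF (0.36, 0.074), EGFR (0.086) and PMEL (-0.33) did not pass. PTPRC, EPCAM and PECAM1, markers of leukocytes, epithelium and endothelium, never exceeded 21. Uniquely aligned reads outside annotated exons of the expected strand made up 28.7% to 41.1% of those reads in EV libraries and 62.8% to 69.1% in PRL3 libraries, and the scaling factors that edgeR's TMM method derived ran from 0.816 to 0.894 in EV and from 1.12 to 1.25 in PRL3. These differences move with every comparison of the groups below, and their part in them was not tested.

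The 37 genes together received a smaller share of the reads in every PRL3 library than in any EV library. Of the reads counted on genes, they held 2.85%, 2.67% and 2.90% in the EV libraries and 2.32%, 1.35% and 1.71% in the PRL3 libraries. The mean share was 2.81% ± 0.119 (SD, n = 3) in EV and 1.79% ± 0.487 (SD, n = 3) in PRL3, a ratio of geometric means of 0.624. The groups did not overlap, which gave p = 0.1 in a two-sided exact permutation test, the smallest p that 3 libraries against 3 allow. It was 0.45 after adjustment over a family of 9 exact tests on shares and ratios. Against all uniquely aligned reads, the shares were 1.74% ± 0.143 (SD, n = 3) in EV and 0.558% ± 0.108 (SD, n = 3) in PRL3. In bulk RNA, fewer cells rich in mitochondria and less mitochondrial RNA per cell cannot be told apart, and neither can be told from more RNA of nuclear genes.

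**Figure D1:**
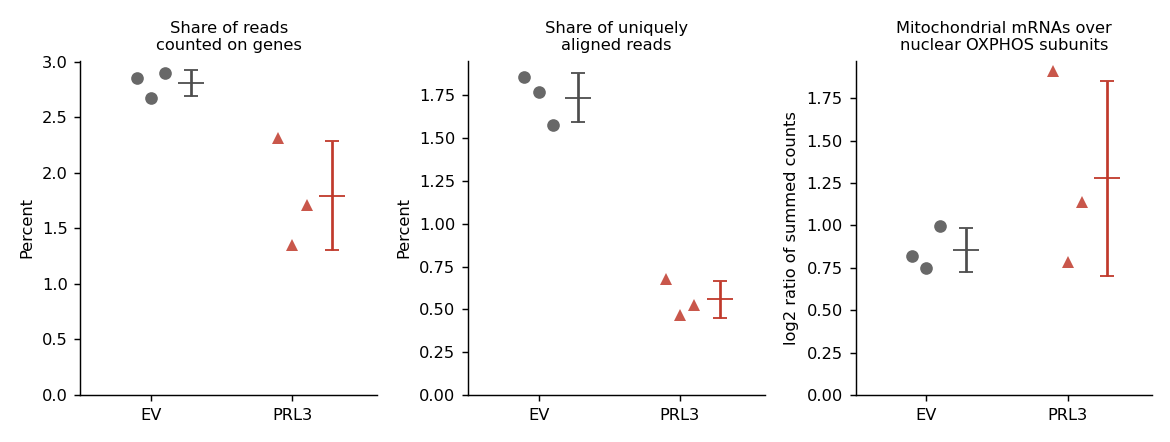
Share of the 37 mitochondrial genes in reads counted on genes (left) and in uniquely aligned reads (middle), in percent, and log2 ratio of summed counts of the 13 mitochondrial mRNAs over 74 nuclear genes for subunits of oxidative phosphorylation (OXPHOS; right), with circles for EV libraries, triangles for PRL3 libraries and bars for the mean and SD of 3 libraries. Both shares lie lower in all 3 PRL3 libraries than in any EV library, while the ratio overlaps between the groups.

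Split by class, the mitochondrial reads were nearly all mRNA and rRNA in both groups. The mRNAs made up 74.7% ± 3.08 (SD, n = 3) of mitochondrial counts in EV and 74.5% ± 4.83 (SD, n = 3) in PRL3. The rRNAs, which the depletion kit is described as removing, still made up 25.1% ± 3.07 (SD, n = 3) and 25.2% ± 4.70 (SD, n = 3). The libraries of the groups overlapped for both classes (two-sided exact permutation p = 1 for each). The tRNA genes held 0.120%, 0.145% and 0.163% of mitochondrial counts in the EV libraries and 0.169%, 0.310% and 0.430% in the PRL3 libraries. These groups did not overlap (two-sided exact permutation p = 0.1, adjusted p = 0.45), although PRL3 B9 lay close to EV B3. The separation depended on the rRNAs in the total. Of mRNA and tRNA counts alone, tRNA genes held 0.161%, 0.186% and 0.226% in EV and 0.211%, 0.423% and 0.606% in PRL3. On that basis PRL3 B9 lay within the EV range and the groups overlapped.

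Each gene was then compared between the groups with edgeR's quasi-likelihood test, fitted over all 23884 genes that passed its filter on low counts, with TMM scaling and Benjamini-Hochberg adjustment. Of the 37 genes, 25 passed the filter. All 12 heavy-strand mRNAs and both rRNAs were lower in PRL3 at an adjusted p of 0.05, no gene was higher, and MT-ND6 and 10 tRNA genes did not pass the test. Over all genes tested, 22.7% were called lower and 20.0% higher. The normalised counts of the groups did not overlap for the same 14 genes and overlapped for the other 11, where 26.6% of all genes tested were lower without overlap and 29.7% higher. The median log2 fold change (PRL3 against EV) was -1.36 over the 13 mRNAs, -0.11 over the 10 tested tRNA genes and 0.11 over all genes. By strand it was -1.27 over the 18 tested heavy-strand genes and 0.0055 over the 7 tested light-strand genes. Only 4 of these heavy-strand genes but 6 of the light-strand genes were tRNA genes, so strand and class cannot be told apart in these medians. Over tRNA genes alone, the median was -0.79 for the heavy strand and 0.069 for the light strand.

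Scaling decides part of these calls. When libraries were scaled by their size alone, the median of all genes moved to 0.60 and the calls were 9 lower and 2 higher. MT-RNR1, MT-ND1, MT-ND2, MT-CO1 and MT-ND5 were then no longer called, and the tRNA genes MT-TW and MT-TY were called higher. The normalised read counts quoted for single genes are counts brought to a common TMM-scaled depth, that of the average library.

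**Figure D2:**
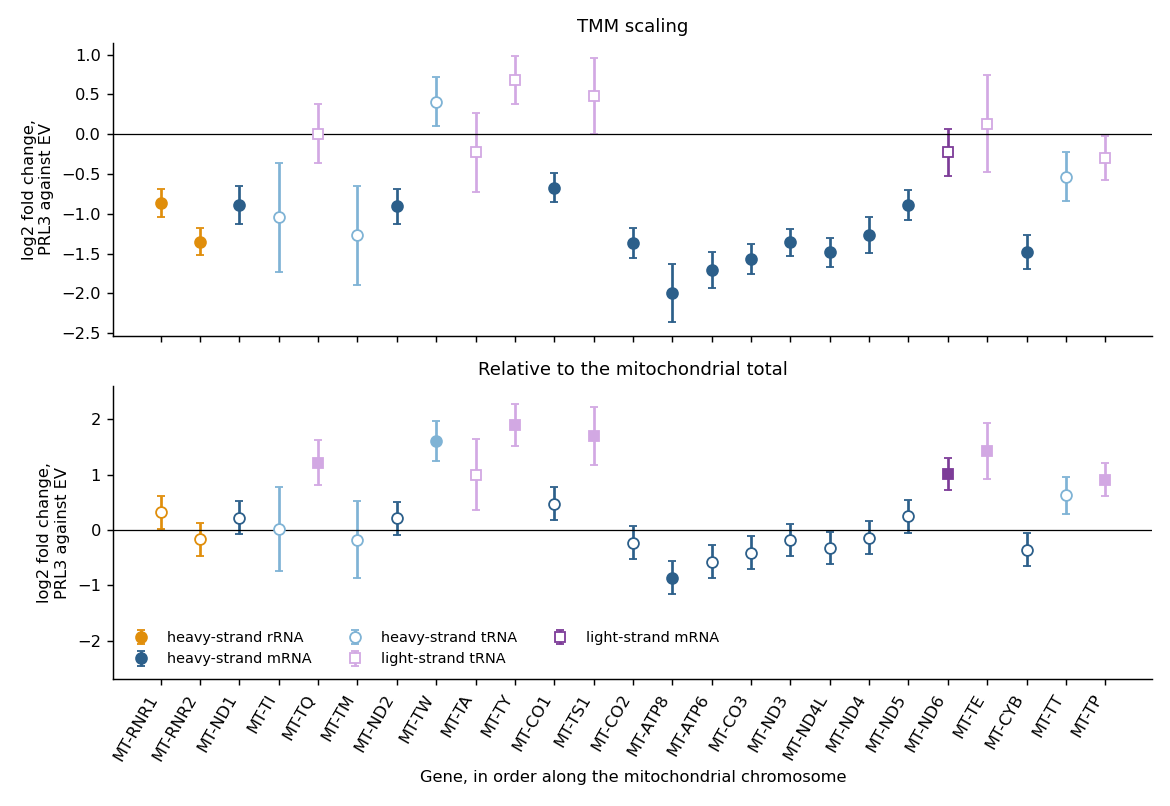
log2 fold change of PRL3 against EV with its standard error for the 25 mitochondrial genes tested, in chromosome order, with TMM scaling over all genes (top) and relative to the mitochondrial total of each library (bottom). Circles are heavy-strand and squares light-strand genes, colours give the class, and filled symbols passed an adjusted p of 0.05: at the top the 14 filled symbols are all below 0 and all heavy-strand, and at the bottom 7 are above 0 and 1 is below.

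The rRNAs stand first on the heavy-strand transcript and form the RNA core of the mitochondrial ribosome. MT-RNR1, the small-subunit rRNA (ENSG00000211459, MT:648-1601), had 125961, 109233 and 130957 normalised counts in the EV libraries and 63838, 55663 and 81451 in the PRL3 libraries. All PRL3 libraries lay below all EV libraries in these counts, though not when scaled by library size alone. The log2 fold change was -0.87 (standard error 0.18, edgeR adjusted p = 0.00155). MT-RNR2, the large-subunit rRNA (ENSG00000210082, MT:1671-3229), had 295917, 227688 and 294696 in EV and 109708, 95462 and 115467 in PRL3. Its groups were further apart, by a log2 fold change of -1.35 (standard error 0.17, edgeR adjusted p = 4.9e-05). MT-RNR2 had 2.23 times the counts of MT-RNR1 in EV and 1.61 times in PRL3, and this ratio did not overlap between the groups. It was singled out after its values were seen and has no test. Both rRNAs were targets of the depletion, and its part in these values was not tested.

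Among the subunits of complex I, which takes electrons from NADH, MT-ND1 (ENSG00000198888, MT:3307-4262) had 55944, 74733 and 60430 normalised counts in EV and 50254, 24376 and 28461 in PRL3. PRL3 B9 came close to the lowest EV library, and the call of this gene (log2 fold change -0.89, standard error 0.24, edgeR adjusted p = 0.0089) was lost without PRL3 B11 (edgeR adjusted p = 0.057). MT-ND2 (ENSG00000198763, MT:4470-5511) had 90178, 85713 and 77722 in EV and 63055, 31762 and 40408 in PRL3, a log2 fold change of -0.91 (standard error 0.22). MT-ND5 (ENSG00000198786, MT:12337-14148), the longest gene of the chromosome, had 53648, 62958 and 55389 in EV and 39590, 23497 and 29939 in PRL3. Its log2 fold change was -0.89 (standard error 0.19). In these 3 genes B9 was the highest PRL3 library, and no PRL3 library reached an EV library in the normalised counts. This depended on the TMM scaling. Scaled by library size alone, B9 lay above every EV library for MT-ND1 and MT-ND2 and within the EV range for MT-ND5.

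The other complex I genes of the heavy strand differed more. MT-ND3 (ENSG00000198840, MT:10059-10404) had 23605, 20814 and 19665 normalised counts in EV and 8314, 6847 and 9830 in PRL3, a log2 fold change of -1.36 (standard error 0.17). MT-ND4L (ENSG00000212907, MT:10470-10766) had 14619, 16159 and 11434 in EV and 5824, 3917 and 5334 in PRL3, a log2 fold change of -1.49 (standard error 0.19). Both were lower without overlap of the groups. MT-ND4 (ENSG00000198886, MT:10760-12137), which begins within MT-ND4L, had 148938, 136274 and 121433 in EV and 79646, 41263 and 48216 in PRL3. Its log2 fold change was -1.27 (standard error 0.22). The edgeR adjusted p values of these 3 genes ranged from 4.15e-05 to 0.00058.

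Cytochrome b, the only subunit of complex III encoded here, is MT-CYB (ENSG00000198727, MT:14747-15887). It had 117917, 120841 and 110871 normalised counts in EV and 58142, 32644 and 34309 in PRL3. The EV libraries were close together and all PRL3 libraries lay below them, and the log2 fold change was -1.48 (standard error 0.21, edgeR adjusted p = 0.000124).

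The 3 genes of complex IV, the oxidase that passes electrons to oxygen, did not differ alike. MT-CO1 (ENSG00000198804, MT:5904-7445), the catalytic subunit, had 261835, 250808 and 264338 normalised counts in EV and 204715, 133704 and 148539 in PRL3. Its log2 fold change of -0.67 (standard error 0.18, edgeR adjusted p = 0.0091) was the smallest of the 14 called genes, and its call was lost without PRL3 B11 (edgeR adjusted p = 0.062). Scaled by library size alone, MT-CO1 was higher in PRL3 B9 than in any EV library. MT-CO2 (ENSG00000198712, MT:7586-8269), which receives electrons from cytochrome c, had 134817, 141413 and 129726 in EV and 67527, 42508 and 46798 in PRL3. MT-CO3 (ENSG00000198938, MT:9207-9990) had 177025, 157241 and 139248 in EV and 64382, 43320 and 51913 in PRL3. Both were lower in every PRL3 library. The log2 fold change was -1.37 ± 0.19 for MT-CO2 and -1.57 ± 0.18 for MT-CO3 (± standard error, edgeR adjusted p of 8.5e-05 and 2.9e-05).

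The ATP synthase genes had the largest differences. MT-ATP8 (ENSG00000228253, MT:8366-8572) had 2531, 3529 and 1123 normalised counts in EV and 722, 333 and 749 in PRL3. EV B3 stood well below the other EV libraries but still above every PRL3 library, and the log2 fold change was -2.0 (standard error 0.37, edgeR adjusted p = 0.00079). MT-ATP8 shares 46 of its 207 bases with MT-ATP6 and lies 1 base from MT-TK. Its counts may depend on how reads touching several genes were assigned, which was not tested. MT-ATP6 (ENSG00000198899, MT:8527-9207), the channel subunit through which protons pass, had 127051, 131282 and 105982 in EV and 52624, 29010 and 30227 in PRL3. Its log2 fold change was -1.70 (standard error 0.22, edgeR adjusted p = 6.4e-05). Over the 12 heavy-strand mRNAs, the log2 fold change was less negative in longer genes (Pearson 0.73, Spearman 0.77, n = 12 genes measured in the same libraries) and showed a weaker relation with distance from the start of the chromosome numbering (Pearson -0.38, Spearman -0.20). With the percent of U the relation was weaker still (Pearson 0.13, Spearman -0.028). MT-ATP8, with the limit on its counts given above, is the shortest of these genes. These are descriptions, since the genes share transcripts and libraries.

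MT-ND6, the single mRNA of the light strand and a subunit of complex I, behaved otherwise. MT-ND6 (ENSG00000198695, MT:14149-14673) had 4672, 3629 and 2574 normalised counts in EV and 1798, 2718 and 4766 in PRL3. PRL3 B9 was the lowest of the 6 libraries and PRL3 B11 the highest, so the groups overlapped fully. The log2 fold change was -0.23 (standard error 0.30, edgeR adjusted p = 0.57), and its sign turned under library-size scaling (0.27) and without PRL3 B9 (0.055).

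Levels per length place the mRNAs on a common scale, as counts scaled to a total of 1000000 on genes (CPM) and divided by gene length in kb. In EV libraries MT-CO3 (3591 ± 299, SD, n = 3), MT-CO2 (3537 ± 91.3), MT-ATP6 (3180 ± 201) and MT-CO1 (3008 ± 223) led. MT-CO3 and MT-CO2 overlapped, as did MT-ATP6 and MT-CO1, whereas MT-CO2 was above MT-ATP6 in every library. MT-CYB (1826 ± 23.3) and MT-ND4 (1755 ± 111) came next and overlapped, followed by MT-ND2 (1449 ± 50.5), MT-ND1 (1191 ± 167) and MT-ND3 (1103 ± 76.2), the last 2 overlapping. MT-ND4L (843 ± 106) and MT-ND5 (566 ± 44.7) were each apart from their neighbours. MT-ATP8 (204 ± 96.4) and MT-ND6 (123 ± 31.05) were lowest, with overlapping ranges. Counted over only the bases that no other gene of the strand covers, the mean EV level was 262 for MT-ATP8 and 3415 for MT-ATP6. This changes the length used but not the reads counted, so any reads set aside for touching several genes would still be missing.

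In PRL3 libraries MT-CO1 led in each library, at 3530 in B9, 2062 in B10 and 2429 in B11 (mean 2673 ± 764, SD, n = 3). MT-CO2 (1943 ± 604), MT-CO3 (1722 ± 437) and MT-ATP6 (1396 ± 573) followed in this order in every library. Then came MT-ND2 (1104 ± 455), MT-ND4 (1044 ± 435), MT-CYB (931 ± 369), MT-ND1 (918 ± 421), MT-ND3 (609 ± 126), MT-ND5 (435 ± 137), MT-ND4L (429 ± 106), MT-ND6 (148 ± 72.1) and MT-ATP8 (74.1 ± 31.1). The ranges of neighbours in this order overlapped except between MT-ND4L and MT-ND6. The spread was wide with B9 the highest library for every mRNA but MT-ND3 and MT-ND6. The rRNAs, which depletion affects, had 2295 ± 312 (MT-RNR1) and 3140 ± 548 (MT-RNR2) in EV and 1773 ± 383 and 1732 ± 238 in PRL3.

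**Figure D3:**
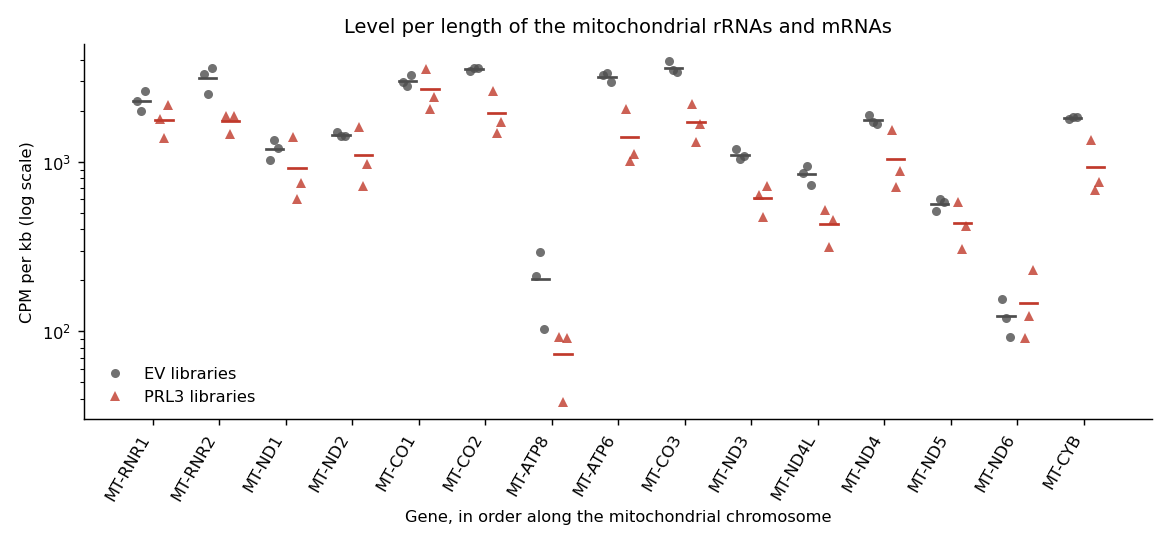
Level per length of the 2 rRNAs and 13 mRNAs in chromosome order, as CPM per kb on a log scale, with circles for the 3 EV libraries, triangles for the 3 PRL3 libraries and bars for the means. MT-CO3 and MT-CO2 have the highest mRNA means in EV and MT-CO1 in PRL3, and MT-ATP8 and MT-ND6 are lowest in both.

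Which genes moved against the others was asked by setting each library's mitochondrial total as its size in the same edgeR fit. Of the 25 genes tested, 7 were higher and 1 was lower relative to that total. On this scale 63.7% of all genes tested were called higher and 3.17% lower, since the mitochondrial total itself was lower. The 7 higher genes were MT-ND6 and the tRNA genes MT-TQ, MT-TY, MT-TS1, MT-TE and MT-TP of the light strand and MT-TW of the heavy strand. So 6 of 7 tested light-strand genes and 1 of 18 tested heavy-strand genes were called higher. Strand and class go together in these numbers. Among tRNA genes alone, 5 of 6 tested on the light strand and 1 of 4 on the heavy strand were called higher. Light-strand genes held only 0.322% (EV mean) and 0.667% (PRL3 mean) of mitochondrial counts. Heavy-strand genes therefore set this total and centre near 0 by construction. The contrast between strands on this scale restates the one with TMM scaling and adds no separate evidence. MT-ATP8 was the gene called lower (log2 fold change -0.86, standard error 0.30, edgeR adjusted p = 0.0067). Its call was lost without EV B2 and without PRL3 B10. Without PRL3 B11 the higher calls numbered 2, MT-TW and MT-TY.

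MT-ND6 made up 0.285%, 0.235% and 0.168% of mitochondrial counts in the EV libraries and 0.206%, 0.478% and 0.702% in the PRL3 libraries. Its share was above the EV range in PRL3 B10 and B11, while B9 lay within the EV range. Relative to the mitochondrial total the log2 fold change was 1.01 (standard error 0.29, edgeR adjusted p = 0.00115), and it was 0.57 without PRL3 B11 (edgeR adjusted p = 0.18).

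The ratio of all light-strand to all heavy-strand counts had the same pattern. On the log2 scale it was -8.05, -8.30 and -8.52 in the EV libraries and -8.36, -7.17 and -6.62 in the PRL3 libraries. B9 lay within the EV range, B10 and B11 lay above it, and the 1.88-fold difference between the group means did not pass (two-sided exact permutation p = 0.3, adjusted p = 0.54). For mRNAs alone, MT-ND6 over the 12 heavy-strand mRNAs, the difference was 1.84-fold (exact permutation p = 0.3). For tRNA genes alone it was 1.03-fold (exact permutation p = 0.9). Against the heavy-strand mRNAs, the summed counts of tRNA genes were 2.04 times as high in PRL3 as in EV for the light strand and 1.99 times for the heavy strand, and these ratios were not tested.

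Among the heavy-strand mRNAs, shares of the mitochondrial counts separated the groups in both directions. MT-CO1 made up 16.0%, 16.2% and 17.3% in the EV libraries and 23.5%, 23.5% and 21.9% in the PRL3 libraries, the largest difference in share of any gene. MT-CO3 made up 10.8%, 10.2% and 9.11% in EV and 7.39%, 7.62% and 7.64% in PRL3. MT-ATP6 made up 7.76%, 8.50% and 6.94% in EV and 6.04%, 5.10% and 4.45% in PRL3. None of these shares overlapped between the groups.

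MT-CYB made up 7.20%, 7.82% and 7.26% of mitochondrial counts in EV and 6.67%, 5.74% and 5.05% in PRL3, and MT-CO2 made up 8.63% ± 0.474 (SD, n = 3) in EV and 7.37% ± 0.439 in PRL3. MT-ND5 made up 3.28%, 4.08% and 3.62% in EV and 4.54%, 4.13% and 4.41% in PRL3, and MT-ND2 had 5.38% ± 0.257 and 6.26% ± 0.867. Of the 13 mRNAs, 4 had lower shares and 3 had higher shares in PRL3 without overlap, beside 2.81% (lower) and 66.9% (higher) of all genes on that scale. Each such comparison has an exact permutation p of 0.1, the smallest possible, and stands outside the family of 9 adjusted tests.

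Genes of the heavy strand can also be set against each other within a library, with no scaling between libraries. MT-CO1 had 1.65 times the counts of MT-CO3 in EV and 3.04 times in PRL3, and on the log2 scale this ratio was 0.56, 0.67 and 0.92 in the EV libraries and 1.67, 1.63 and 1.52 in the PRL3 libraries. All 3 PRL3 libraries, B9 included, lay above the EV range. MT-ND5 had 0.491 times the counts of MT-CYB in EV and 0.753 times in PRL3, again without overlap. By complex, the share of complex V in mitochondrial mRNA counts was 10.54% ± 0.735 (SD, n = 3) in EV and 7.06% ± 0.599 in PRL3, and that of complex III was 9.94% ± 0.192 and 7.78% ± 0.598. Complex I (32.4% and 34.3%) and complex IV (47.1% and 50.9%) overlapped. These ratios were picked after their values were seen and carry no test.

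**Figure D4:**
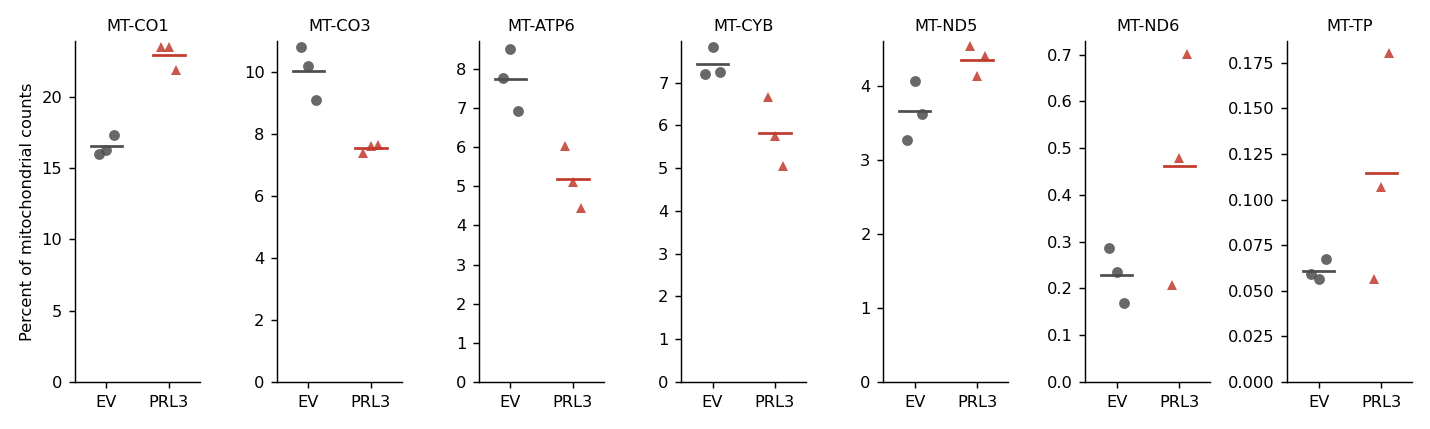
Percent of each library's mitochondrial counts on 7 genes, with circles for EV libraries, triangles for PRL3 libraries, bars for the means of 3 libraries and a separate vertical scale from 0 for each gene. MT-CO1 and MT-ND5 are higher and MT-CO3, MT-ATP6 and MT-CYB lower in all 3 PRL3 libraries, whereas MT-ND6 and MT-TP are raised in B10 and B11 but not in B9, the first of the 3 triangles.

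The tRNA genes carry the adaptors for protein synthesis in the organelle, and they are shorter than the reads, so that a read on one usually reaches beyond it. Of the 22 genes, 10 had no read in any library: MT-TV, MT-TL1, MT-TN, MT-TC, MT-TK, MT-TG, MT-TR, MT-TH, MT-TS2 and MT-TL2. With 0 counts, a level of up to 0.0518 to 0.0821 CPM (3 counts per library, counting error only) remained possible. Each of these 10 had another gene of the same strand within 31 bases on both sides, as MT-TH, MT-TS2 and MT-TL2 have in the sequences above. The other 12 had at least 70 bases without a gene of the same strand on 1 side or the end of the gene order, and each had reads. Whether read assignment produced the 0 counts was not tested. The counter sets aside a read that touches several genes in its default mode, and the mode used is not given in the sources used here.

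MT-TF (phenylalanine) and MT-TD (aspartate) had at most 6 reads in any library and were not tested. The 10 tested tRNA genes had between 11 and 1144 reads. Those of the light strand were led by MT-TP, with 792, 724 and 1132 counts in the EV libraries and 476, 817 and 1144 in the PRL3 libraries. MT-TY (tyrosine) had 103, 124 and 224 in EV and 168, 371 and 297 in PRL3. MT-TQ (glutamine) had 122, 103 and 215 in EV and 93, 165 and 236 in PRL3. All 3 overlapped between the groups in normalised counts, and their TMM-scaled log2 fold changes were -0.30 (MT-TP), 0.68 (MT-TY, edgeR adjusted p = 0.088) and 0.0055 (MT-TQ). MT-TY was called higher without EV B3 (edgeR adjusted p = 0.032) or PRL3 B9 (0.049), and under upper-quartile (0.038) and library-size scaling (0.0080). MT-TP was called lower without PRL3 B11 (edgeR adjusted p = 0.019) and with all uniquely aligned reads as library size (0.028).

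On the heavy strand, MT-TT had 201, 486 and 588 counts in the EV libraries and 299, 329 and 364 in the PRL3 libraries. MT-TW (tryptophan) had 120, 196 and 336 in EV and 222, 391 and 369 in PRL3. MT-TM (methionine) had 58, 64 and 28 in EV and 40, 22 and 13 in PRL3. None passed the test with TMM scaling of all 6 libraries, although MT-TT was called lower without EV B1 (edgeR adjusted p = 0.016) and MT-TM without EV B3 (0.0235). With all uniquely aligned reads as library size, MT-TT and MT-TM were called lower (edgeR adjusted p of 0.011 and 0.028). With library size alone, MT-TW was called higher (edgeR adjusted p = 0.033). Relative to the mitochondrial total, MT-TW was higher (log2 fold change 1.61, standard error 0.36, edgeR adjusted p = 2.4e-05) and so was MT-TY (1.91, standard error 0.38, edgeR adjusted p = 2.4e-06), while MT-TT (0.63, edgeR adjusted p = 0.088) and MT-TM (-0.17) did not pass. The other tested tRNA genes, MT-TI, MT-TA, MT-TS1 and MT-TE, had between 11 and 118 counts.

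**Figure D5:**
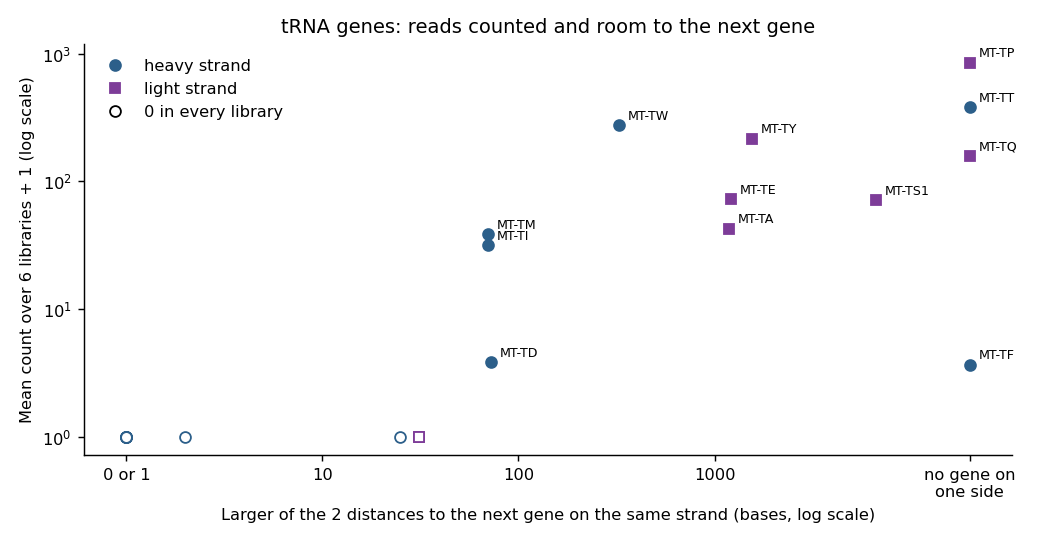
Mean count over 6 libraries plus 1 (log scale) of the 22 tRNA genes against the larger of the distances in bases to the next gene on the same strand (log scale, with genes at an end of the gene order placed at the right). Circles are heavy-strand and squares light-strand genes: the 10 open symbols, some of which coincide at the left, had 0 reads in every library and all lie at 31 bases or less, and the filled symbols lie at 70 bases or more.

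Copies of mitochondrial genes in the nuclear genome can take reads that belong to the organelle. The 404 such copies listed in the annotation held, in sum, counts equal to 1.71% ± 0.507 (SD, n = 3) of the mitochondrial counts in EV and 1.499% ± 0.198 in PRL3. MTATP6P1 on chromosome 1 (chr1:633696-634376, GRCh38), 98.5% identical to MT-ATP6, received most. Its counts were 12.5%, 13.4% and 11.6% of those of MT-ATP6 in the EV libraries and 14.7%, 13.1% and 12.5% in the PRL3 libraries, so it kept a similar ratio to MT-ATP6 in both groups. It was itself lower in PRL3 (log2 fold change -1.58, standard error 0.26, edgeR adjusted p = 0.00031). The next 4, MTCO1P12, MTCO2P12, MTCO3P12 and MTND4P12, had 0.421% to 2.74% of the counts of their counterparts and were also called lower, with log2 fold changes from -2.12 to -1.28. From which genome these reads came was not tested. Alignments that were not unique numbered 12409441 to 32460113 per library and were counted on no gene. How many of them matched both a mitochondrial gene and its copy is not known. The values of MT-ATP6 and of the other counterparts, their levels per length included, are uncertain for both reasons.

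Respiratory complexes are built from mitochondrial and nuclear subunits, so the nuclear partners were compared in the same fit. Of 74 nuclear OXPHOS subunit genes, 64 were lower and 3 higher in PRL3, with a median log2 fold change of -1.48. All 9 genes of complex III and all 11 of complex IV were lower, as were 29 of 37 of complex I and 15 of 17 of complex V. Of 78 genes for mitochondrial ribosomal proteins, 58 were lower and 3 higher, with a median of -0.88. The same share of 22.7% called lower over all genes applies to these counts.

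The mitochondrial mRNAs had 1.81 times the summed counts of the nuclear OXPHOS genes in EV and 2.42 times in PRL3. PRL3 B10 lay within the EV range, and the difference was 0.42 on the log2 scale (two-sided exact permutation p = 0.3). They had 3.55 times the counts of the ribosomal protein genes in EV and 2.99 times in PRL3 (difference -0.25 on the log2 scale, exact permutation p = 0.5). Neither test could have gone below 0.1, so they do not show that the mitochondrial mRNAs and their nuclear partners changed alike. When a library was left out, the first difference ran from 0.11 (without PRL3 B9) to 0.67 (without PRL3 B10) and the second from -0.51 (without PRL3 B9) to -0.029 (without PRL3 B10).

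The nuclear genes listed for mitochondrial gene expression were called about as often as genes in general. Besides genes that transcribe, cut, stabilise and modify mitochondrial RNA, the list holds 6 replication genes and 6 nuclear regulators. Of its 48 genes, all tested, 10 were lower, 8 higher and 30 did not pass, beside 22.7% lower and 20.0% higher over all genes. Their median log2 fold change was -0.099 against 0.11 over all genes. Library-size scaling gave 5 lower and 21 higher, and scaling by all uniquely aligned reads 26 lower and 1 higher. Nothing particular to the list is read from these counts, and single genes follow.

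POLRMT, the mitochondrial RNA polymerase, had 5890, 9117 and 6155 normalised counts in the EV libraries and 1675, 2598 and 1894 in the PRL3 libraries. All PRL3 libraries lay well below EV (log2 fold change -1.78, standard error 0.21, edgeR adjusted p = 3.1e-05). TFB2M, the transcription initiation factor that opens the promoter, was lower by a smaller amount (log2 fold change -0.54, edgeR adjusted p = 0.021), and it did not pass under library-size scaling or without EV B1, PRL3 B9 or PRL3 B11 or under upper-quartile scaling (edgeR adjusted p of 0.81, 0.051, 0.12, 0.051 and 0.079). TFAM, which bends and packages mitochondrial DNA, had 2890, 1605 and 2097 in EV and 1874, 2133 and 2395 in PRL3. TFAM (log2 fold change -0.042) and the elongation factor TEFM (0.018) did not pass, and the groups overlapped. MTERF1, a factor that binds downstream of MT-RNR2, was higher (log2 fold change 0.54, edgeR adjusted p = 0.034), a call that was lost without EV B2, PRL3 B9, PRL3 B10 or PRL3 B11 (edgeR adjusted p of 0.0904, 0.0688, 0.0868 and 0.0997) and when all uniquely aligned reads set the scale (0.83).

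HSD17B10, a subunit of the enzyme that cuts the 5′ ends of mitochondrial tRNAs, had 11283 to 14233 normalised counts in EV and 2209 to 3635 in PRL3 (log2 fold change -2.16, standard error 0.20, edgeR adjusted p = 1e-05). PRORP, the nuclease of the same enzyme, was higher (179, 152 and 211 against 362, 345 and 376 normalised counts, log2 fold change 1.00, edgeR adjusted p = 0.0042), a call lost when all uniquely aligned reads set the scale (log2 fold change 0.53, edgeR adjusted p = 0.087). TRMT10C, its methyltransferase subunit (log2 fold change -0.50, edgeR adjusted p = 0.055), and ELAC2, which cuts the 3′ ends (-0.21), did not pass. TRMT10C was called lower in 7 alternatives, with adjusted p from 0.0013 (edgeR scaled by all uniquely aligned reads) to 0.0497 (limma-voom), among them DESeq2 (0.026) and edgeR without EV B2 (0.037) or EV B3 (0.032). ELAC2 was called lower with all uniquely aligned reads alone (edgeR adjusted p = 0.0061). Of the partners that hold mitochondrial mRNAs stable, SLIRP was lower (9126, 7126 and 6482 against 2223, 2640 and 2687, log2 fold change -1.59, edgeR adjusted p = 1.7e-05), whereas LRPPRC (-0.26) passed with all uniquely aligned reads alone (edgeR adjusted p = 0.0075).

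In the degradation pair, the nuclease PNPT1 was lower (log2 fold change -0.62, edgeR adjusted p = 0.016), a call lost under library-size and upper-quartile scaling (edgeR adjusted p of 0.60 and 0.057) and without PRL3 B9 or B10 (0.0602 and 0.0623), and the helicase SUPV3L1 (-0.33, edgeR adjusted p = 0.12) passed with all uniquely aligned reads (0.0022) and without EV B3 (0.042) but not with TMM scaling of all libraries. PPARGC1B, a nuclear coactivator of mitochondrial genes, was higher (1446, 1419 and 2029 against 3810, 3738 and 3356 normalised counts, log2 fold change 1.16, edgeR adjusted p = 0.00016).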

How the data were processed

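The authors aligned paired reads of the 6 libraries to GRCh38 with STAR 2.5.1b and counted them per Ensembl 91 gene with HTSeq 0.6.1 on the reverse strand. The deposited values are raw counts per gene, without normalization. Names, strands and positions came from GENCODE release 44 on the same build (57532 of 58243 identifiers matched, and all 37 mitochondrial ones). Sequences were read from the GRCh38 genome. Testing used edgeR 4.0.16 under R 4.3.3 (quasi-likelihood test, TMM scaling, filterByExpr by group, 23884 genes, Benjamini-Hochberg adjustment over all of them, threshold 0.05). Standard errors were derived from the F statistic. A second fit used each library's mitochondrial total as its size. Shares and ratios were compared by two-sided exact permutation over libraries (scipy 1.17.1), 9 tests as a family. Tested on simulated data for this comparison, with 200 of 23884 genes changed 2-fold, the procedure recovered 41% of them with 3 false calls, so changes of that size can be missed.

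Read totals per library, 36532207 to 57952035, cover counting error only. No library pair was alike within sampling noise (smallest mean chi-square per gene 25.4). Alternatives were other scalings (RLE, upper quartile, library size, all uniquely aligned reads), filters, thresholds, DESeq2 1.42.0, limma-voom (limma 3.58.1), other totals and leaving out each library. The members and lists were chosen with earlier results of these data known. Named were all 37 genes (values per library for mRNAs, rRNAs and the 3 tRNA genes per strand with most reads), 12 listed machinery genes plus the 2 with the smallest p in each direction, and the 5 nuclear copies with most counts.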

Additional observations from a re-analysis of the deposited data

How the results depend on the processing

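The 14 lower calls among mitochondrial genes numbered 14 under RLE and upper-quartile scaling, both other filters, an adjusted p of 0.01, DESeq2 and limma-voom, 17 with all uniquely aligned reads as library size, and 9 with library size alone, and 13 to 15 when a library was left out. The higher calls, 0 with edgeR and TMM scaling, were 2 under library-size scaling, 1 under upper-quartile scaling and 0 to 1 when a library was left out. Relative to the mitochondrial total, the lower calls were 2 with DESeq2 and 0 to 2, and the higher calls 2 to 8, when a library was left out. Of the 48 machinery genes, 5 were lower and 21 higher under library-size scaling, 26 and 1 with all uniquely aligned reads, 6 were lower and 4 higher at an adjusted p of 0.01, and 6 to 12 lower and 5 to 9 higher when a library was left out. The log2 difference in mitochondrial share was -0.68 of gene counts and -1.65 of uniquely aligned reads. The log2 light over heavy ratio differed by 0.91, and by 0.036 for tRNA genes only. The cause of these shifts was not tested.

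Differences near 0 changed sign. The log2 difference in share of mitochondrial counts ran from -0.056 to 0.034 for mRNA and from -0.12 to 0.15 for rRNA when a library was left out. With library size alone, the log2 fold changes were 0.28 (ELAC2), 0.24 (LRPPRC), 0.27 (MT-ND6), 0.25 (MT-TA), 0.18 (MT-TP), 0.17 (SUPV3L1) and 0.45 (TFAM), and TFAM had 0.15 with upper-quartile scaling and 0.00086 with at least 10 counts in every library. With all uniquely aligned reads they were -0.36 (MT-TE), -0.47 (MT-TQ), -0.057 (MT-TW) and -0.46 (TEFM). DESeq2 gave -0.027 (MT-TQ) and -0.015 (TEFM), RLE scaling -0.027 and -0.015, and limma-voom -0.14 (MT-TQ). When a library was left out they ran from -0.67 to 0.055 (MT-ND6), -0.36 to 0.85 (MT-TE), -0.50 to 0.27 (MT-TQ), -0.18 to 0.24 (TEFM) and -0.21 to 0.21 (TFAM), and relative to the mitochondrial total from -0.32 to 0.54 (MT-TI) and -0.56 to 0.12 (MT-TM). Among the mitochondrial and named machinery genes, for which these alternatives were computed singly, none that was called in the fit reported above changed sign.

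No paired analysis was possible because EV libraries carry the numbers 1 to 3 and PRL3 libraries 9 to 11. With 3 libraries against 3 the exact tests cannot go below 0.1. Depth limits the tRNA genes most, since those tested had as few as 11 reads. The rRNA values depend on the depletion, and every comparison between groups rests on scaling libraries that differ in reads outside exons.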
